A study of Arabidopsis thaliana with 12 samples.

Results

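The 10 genes described here encode parts of the plant cell cycle machinery: the B-type cyclins CYCB1;1, CYCB1;2 and CYCB1;4, the D-type cyclin CYCD3;1, the B-type cyclin-dependent kinases CDKB1;1, CDKB2;1 and CDKB2;2, the S-phase genes TSO2 and PCNA1, and KNOLLE, which acts in cytokinesis. They were taken by name from a table of 25729 genes, and all 10 were in it. Transcripts were measured by RNA sequencing in whole Arabidopsis thaliana seedlings, with 3 libraries in each of 4 groups. Plants of the Col-0 accession were either wild type, called Col-0 below, or homozygous for tic-2, an allele of the circadian clock gene TIME FOR COFFEE (TIC). Both genotypes were sampled before dawn, at ZT 0, and after dusk, at ZT 12, with ZT in hours after lights-on. Every seedling was harvested at 10 days, after growth at 22 °C in what the labels name LD, on MS medium with 3% sucrose. The labels give neither the lesion in tic-2 nor how many seedlings went into a library. Libraries of a group are biological replicates according to the series. The p-values rest on the variation among them, pooled per gene over the 4 groups as if their spread were equal. The mutant is 1 allele in all cells, so an effect in dividing cells alone was not measured. For 6 samples, the tic-2 predawn and the Col-0 postdusk ones, the free-text description names the other of these groups. Groups here follow the titles and the genotype and ZT in the table's column names, and a library is named by the letter A, B or C of its column.

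Plant cells enter S phase when D-type cyclins, bound to the kinase CDKA, release E2F factors from the retinoblastoma-related protein, and E2F factors switch on genes for nucleotide supply and replication such as TSO2 and PCNA1. B-type cyclins and B-type kinases then drive entry into mitosis, and their genes are activated by MYB3R factors through a short promoter element. In a seedling these transcripts come mainly from the shoot and root meristems, young leaves and other dividing cells, which are a small share of the tissue. In whole seedlings, fewer dividing cells and less RNA per dividing cell cannot be told apart.

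Levels are FPKM, reads scaled by exon length and by library depth, which allows comparison between genes. Tests used limma on log2(FPKM + 1), with p-values adjusted by the Benjamini-Hochberg method over 19274 genes and a threshold of 0.05. A gene past it is described as called. Depth was between 19255016 and 21750334 reads per library. All 10 genes passed the filter on low values. The least covered value was CYCB1;1 in tic-2 postdusk C, with 69 reads, where counting error alone is about 12%. CYCD3;1 had between 833 and 1600 reads and TSO2 between 567 and 1162. The TIC transcript averaged 77.5 ± 18.4 FPKM (SD, n = 3) in the mutant at predawn against 54.9 ± 2.46 in the wild type, and was not called at either time. The morning clock transcripts LHY and CCA1 in Col-0 fell from 401 and 259 FPKM at predawn to 0.483 and 0.7475 FPKM at postdusk, while the evening transcripts TOC1 and GI went from 8.72 and 0.134 FPKM to 88.5 and 26.3 FPKM. The libraries labelled tic-2 predawn had LHY at 158 FPKM, and those labelled Col-0 postdusk had it at 0.483 FPKM.

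In Col-0 at predawn, TSO2 at 26.2 ± 2.45 FPKM and CYCD3;1 at 24.0 ± 1.23 FPKM stood highest, and they did not differ beyond their spread. CDKB2;2 (11.03 ± 0.636), KNOLLE (10.3 ± 1.18), CDKB2;1 (9.10 ± 1.01), PCNA1 (7.56 ± 1.09) and CYCB1;2 (6.48 ± 0.516) formed a middle range in which the libraries of each gene overlapped those of the next. CDKB1;1 (4.26 ± 0.401), CYCB1;4 (4.07 ± 0.685) and CYCB1;1 (2.73 ± 0.386 FPKM) were lowest, and of these only CDKB1;1 and CYCB1;4 overlapped. In tic-2 the pair at the top moved apart, with CYCD3;1 at 38.5 ± 3.89 and TSO2 at 19.1 ± 0.0866 FPKM at predawn.

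**Figure D1:**
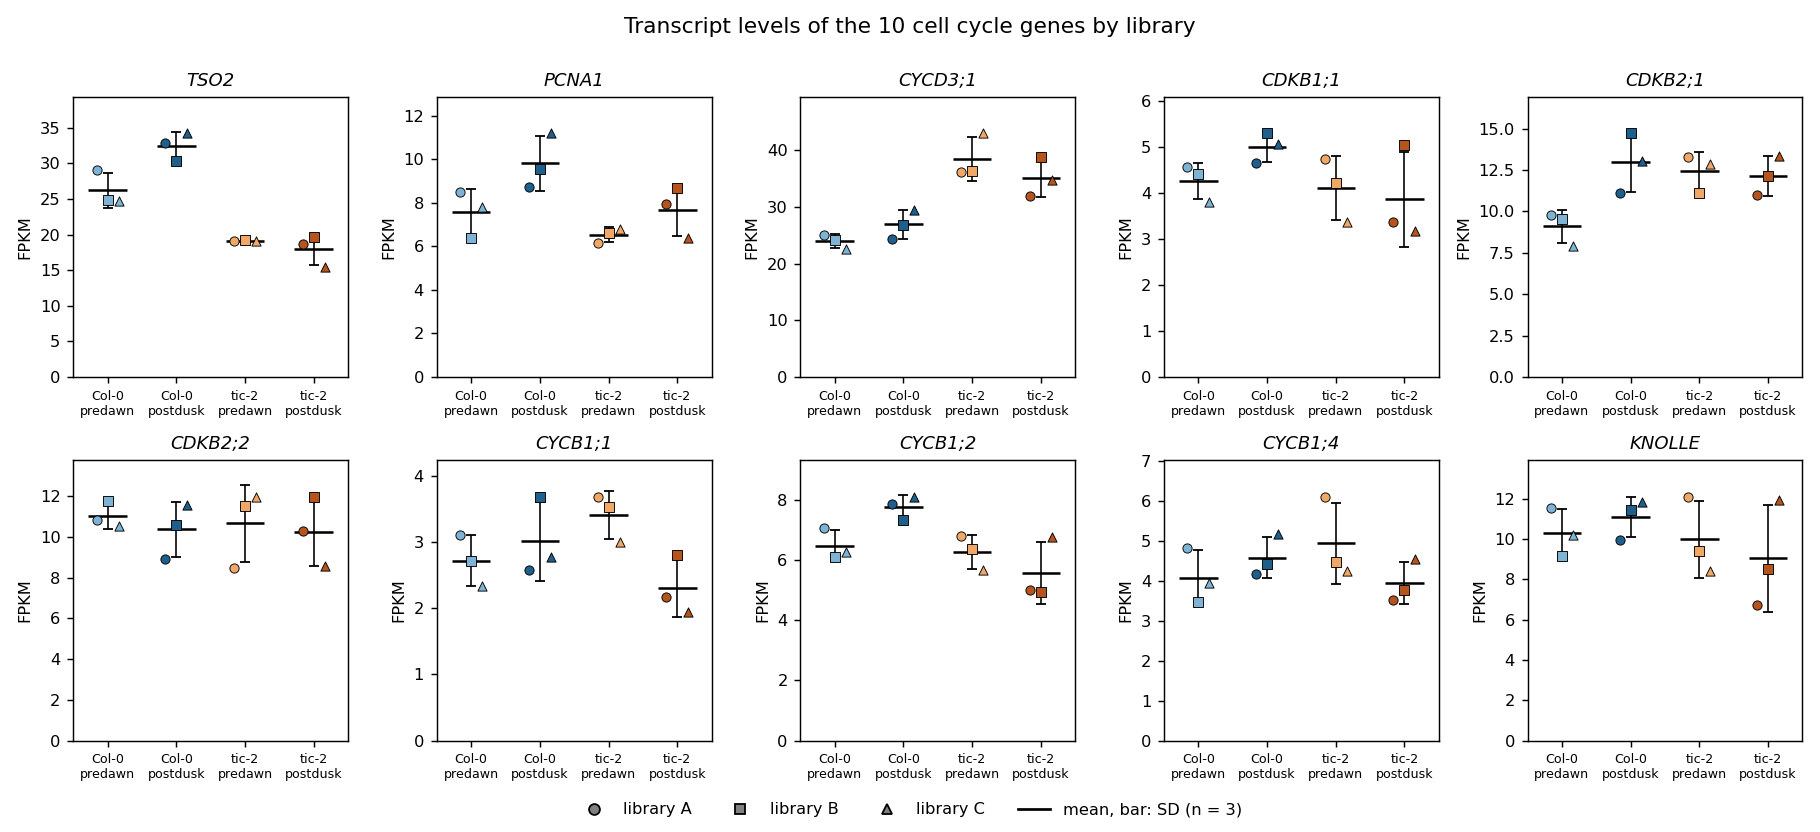
Level of each of the 10 genes in FPKM (vertical axes, each from 0) in the 12 libraries, by genotype and time. Symbols are libraries A, B and C, and lines and bars are the mean and SD of 3 libraries. TSO2 is lower and CYCD3;1 is higher in every tic-2 library than in any Col-0 library of the same time, whereas CDKB2;2 overlaps in all 4 groups.

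TSO2 (AT3G27060, TAIR10.1 chromosome 3, 9979841 to 9981620, minus strand) encodes a small subunit of ribonucleotide reductase, the enzyme that makes deoxynucleotides for DNA synthesis. In Col-0 it was at 29.01, 24.9 and 24.64 FPKM in predawn libraries A, B and C, and at 32.86, 30.3 and 34.22 FPKM at postdusk. In tic-2 it was at 19.03, 19.19 and 19.14 FPKM at predawn, with 18.67, 19.61 and 15.41 FPKM at postdusk. Every tic-2 library lay below every Col-0 library, at both times. TSO2 was lower in tic-2 at predawn, with a log2 fold change of -0.43 (SE 0.10, limma adjusted p = 0.0076), and at postdusk, with -0.83 (SE 0.10, adjusted p = 0.000238), when its mean level was 17.9 ± 2.21 against 32.5 ± 1.99 FPKM. Both calls held under each of the 24 alternative settings, with adjusted p up to 0.0373 at predawn and up to 0.00472 at postdusk. The deficit at postdusk minus that at predawn was -0.40 (95% interval -0.71 to -0.09), which was not called (adjusted p = 0.0842). Col-0 rose from predawn to postdusk by 0.30 on the log2 scale (adjusted p = 0.0345), with groups that did not overlap. That rise was not called without Col-0 predawn B (adjusted p = 0.113), predawn C (0.12), postdusk A (0.0886) or postdusk C (0.12), nor after rescaling by median of ratios (0.0957) or by quantiles (0.0867). In tic-2 the same time difference was -0.10 (95% interval -0.32 to 0.12, adjusted p = 0.479).

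PCNA1 (AT1G07370, chromosome 1, 2263037 to 2264553, plus strand) encodes the sliding clamp that holds DNA polymerase on the template. In Col-0 it was at 8.514, 6.374 and 7.802 FPKM at predawn, with 8.722, 9.548 and 11.2 FPKM at postdusk. In tic-2 it was at 6.171, 6.619 and 6.821 FPKM at predawn, with 7.931, 8.686 and 6.388 FPKM at postdusk. The genotypes overlapped at predawn, and at postdusk the highest tic-2 library, 8.686 FPKM, lay just under the lowest Col-0 library, 8.722 FPKM. The log2 difference at postdusk was -0.32 (SE 0.13) and was not called (limma adjusted p = 0.0816). From predawn to postdusk the Col-0 libraries did not overlap, with a log2 difference of 0.34 (adjusted p = 0.06), which was called without Col-0 predawn A (0.0483) or tic-2 postdusk C (0.0362).

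CYCD3;1 (AT4G34160, chromosome 4, 16357421 to 16359565, plus strand), a D-type cyclin that responds to cytokinin and sugar and promotes the entry into S phase, was higher in the mutant. In Col-0 it was at 25.1, 24.16 and 22.65 FPKM at predawn, with 24.36, 26.9 and 29.51 FPKM at postdusk. In tic-2 it was at 36.24, 36.3 and 43.01 FPKM at predawn, with 31.97, 38.8 and 34.74 FPKM at postdusk. All 3 tic-2 libraries were above all 3 Col-0 libraries at each time, and within each genotype the times overlapped. At predawn it was 1.61-fold higher in tic-2 (log2 fold change 0.66, SE 0.10, limma adjusted p = 0.000621), under each of the 24 alternatives. At postdusk it was 1.31-fold higher (log2 fold change 0.37, SE 0.10, adjusted p = 0.0206), and that call was lost without Col-0 postdusk A (0.0831), Col-0 postdusk B (0.0533) or tic-2 postdusk B (0.0662). The postdusk minus the predawn difference was -0.29 (95% interval -0.61 to 0.04, adjusted p = 0.23). The time difference was not called in either genotype, at 0.16 (95% interval -0.07 to 0.39) in Col-0 and -0.13 (95% interval -0.36 to 0.10) in tic-2.

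The B-type kinases are specific to plants and peak in transcript between S phase and mitosis. CDKB2;1 (AT1G76540, chromosome 1, 28720328 to 28722550, minus strand) was at 9.789, 9.56 and 7.941 FPKM in Col-0 at predawn and at 11.13, 14.73 and 13.05 FPKM at postdusk. In tic-2 it was at 13.31, 11.13 and 12.86 FPKM at predawn, with 10.97, 12.12 and 13.35 FPKM at postdusk. Col-0 at predawn was thus the low group, with no overlap with any other group, and the other 3 groups overlapped. It rose from predawn to postdusk in Col-0 by 0.47 on the log2 scale (SE 0.12, limma adjusted p = 0.00991), under each of the 24 alternatives. It was higher in tic-2 at predawn by 0.41 (SE 0.12, adjusted p = 0.0245), a call lost without Col-0 predawn C (0.107) or without library A (0.067) or C (0.0625) of tic-2 at predawn. At postdusk the genotypes differed by -0.08 (95% interval -0.35 to 0.18), and in tic-2 the times differed by -0.03 (95% interval -0.30 to 0.23). The difference between the genotype effects was -0.50 (95% interval -0.87 to -0.12, adjusted p = 0.074), which was called without Col-0 postdusk A (0.0437) or tic-2 postdusk C (0.0494).

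CDKB2;2 (AT1G20930, chromosome 1, 7292389 to 7294746, minus strand), its closest relative, had none of this pattern. Its group means were between 10.3 ± 1.69 FPKM in tic-2 at postdusk and 11.03 ± 0.636 in Col-0 at predawn, single libraries ran from 8.469 to 11.97 FPKM, and all groups overlapped. None of its comparisons was called under any setting run. CDKB1;1 (AT3G54180, chromosome 3, 20059671 to 20061488, plus strand) averaged 4.26 ± 0.401 FPKM in the wild type and 4.11 ± 0.699 in the mutant at predawn. At postdusk it was at 4.655, 5.3 and 5.059 FPKM in Col-0 and at 3.371, 5.047 and 3.167 FPKM in tic-2. A single library, tic-2 postdusk B, overlapped Col-0. The difference of -0.32 (95% interval -0.65 to 0.00, limma adjusted p = 0.12) was called without that library (-0.49, adjusted p = 0.0205).

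The B1-type cyclins activate these kinases at the entry into mitosis. CYCB1;2 (AT5G06150, chromosome 5, 1859279 to 1861703, minus strand) was at 7.061, 6.086 and 6.28 FPKM in Col-0 at predawn and at 7.861, 7.324 and 8.104 FPKM at postdusk. In tic-2 it was at 6.801, 6.35 and 5.683 FPKM at predawn, with 5.013, 4.949 and 6.748 FPKM at postdusk. The genotypes overlapped at predawn and did not overlap at postdusk. It was lower in tic-2 at postdusk (log2 fold change -0.43, SE 0.12, limma adjusted p = 0.0181). The call was lost without Col-0 postdusk A (0.0536), Col-0 postdusk C (0.0602), tic-2 postdusk A (0.0673) or tic-2 postdusk B (0.0578). It was also lost after rescaling by median of ratios (log2 fold change -0.32, adjusted p = 0.0865) or by quantiles (0.0837). Of the 50-base stretches of its exons, 11.3% occur elsewhere in the genome, so its reads could in part be shared. For the other 9 genes that share was 0.

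CYCB1;1 (AT4G37490, chromosome 4, 17621886 to 17624308, minus strand), whose promoter is widely used to mark dividing cells, was at 3.116, 2.715 and 2.345 FPKM in Col-0 at predawn and at 2.574, 3.691 and 2.782 FPKM at postdusk. In tic-2 it was at 3.692, 3.542 and 2.998 FPKM at predawn, with 2.176, 2.804 and 1.946 FPKM at postdusk. Within tic-2 all postdusk libraries were below all predawn libraries, while in Col-0 the times overlapped. It fell from predawn to postdusk in tic-2 by 0.42 on the log2 scale (log2 fold change -0.42, SE 0.14, limma adjusted p = 0.0347). That call was lost without tic-2 predawn A (0.096), predawn B (0.0929), postdusk A (0.0915) or postdusk C (0.108), with no filter on low values (0.0508) and in a fit of the tic-2 libraries alone (0.0689). It was also lost without both C libraries of tic-2 (0.0731). The genotype difference was 0.25 (95% interval -0.06 to 0.55) at predawn and -0.28 (95% interval -0.59 to 0.03) at postdusk, and the change between them was -0.52 (95% interval -0.96 to -0.09, adjusted p = 0.104).

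CYCB1;4 (AT2G26760, chromosome 2, 11401118 to 11403433, plus strand) averaged 4.07 ± 0.685 FPKM in the wild type and 4.94 ± 1.01 in the mutant at predawn, and 4.58 ± 0.522 and 3.94 ± 0.531 FPKM at postdusk, with overlap in every comparison. KNOLLE (AT1G08560, chromosome 1, 2709525 to 2711000, minus strand), the syntaxin that fuses vesicles into the cell plate between daughter cells, averaged 10.3 ± 1.18 FPKM in Col-0 against 9.98 ± 1.90 in tic-2 at predawn, and 11.1 ± 0.989 against 9.04 ± 2.64 FPKM at postdusk. In tic-2 at postdusk its libraries A, B and C were at 6.708, 8.506 and 11.91 FPKM, the widest relative spread of the 10 genes in any group. Library C lay above all 3 Col-0 libraries, and A and B lay below them. The difference at postdusk was -0.30 (95% interval -0.68 to 0.09, limma adjusted p = 0.224), and -0.49 (adjusted p = 0.0378) without tic-2 postdusk C.

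CYCB1;1 and CYCB1;2 are shown with the 250 bases before their annotated starts because these hold the most copies of AACGG, the core of the element bound by MYB3R factors. Both windows are RefSeq sequence of TAIR10.1, read 5′ to 3′ on the minus strand, from chr4:17624309-17624558 and chr5:1861704-1861953. Capitals mark AACGG on either strand, so CCGTT is the same word on the other strand.
CYCB1;1: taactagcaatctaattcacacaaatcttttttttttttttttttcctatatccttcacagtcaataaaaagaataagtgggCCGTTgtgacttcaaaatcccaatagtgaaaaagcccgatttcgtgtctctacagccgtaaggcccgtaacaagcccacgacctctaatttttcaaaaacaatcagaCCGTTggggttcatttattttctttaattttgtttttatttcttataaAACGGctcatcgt
CYCB1;2: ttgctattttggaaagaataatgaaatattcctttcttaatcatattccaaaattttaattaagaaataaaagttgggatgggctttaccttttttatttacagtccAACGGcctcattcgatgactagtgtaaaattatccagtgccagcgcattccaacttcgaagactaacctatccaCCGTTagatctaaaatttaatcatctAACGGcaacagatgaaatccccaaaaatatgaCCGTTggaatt

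The first window held the word 3 times, the nearest ending 9 bases before the start, and the second 4 times, the nearest ending 7 bases before it. CYCD3;1, CDKB2;2 and KNOLLE had 1 copy each, and the other 5 genes had none in this window. The windows of CYCD3;1, CDKB1;1, CDKB2;1 and PCNA1 overlap a neighbouring gene (AT4G34150, AT3G54170, AT1G76550 and AT1G07360). The word was present, on either strand, in 5 of the 10 windows and in 20.57% of 27443 gene windows of the same length. TGGGCC, a word of TCP-bound promoters, was in the first window alone, where it overlaps the most distant CCGTT, against 13.7% of all windows. The E2F words TTTCCCGC, TTTGGCGC, TTTGCCGC and TTTCGCGC (1.41% of all windows), the evening element AAAATATCT (2.36%) and the G-box CACGTG (6.49%) were searched on both strands and were in none of the 10 windows. A match is a description of the letters and not of a bound site.

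**Figure D2:**
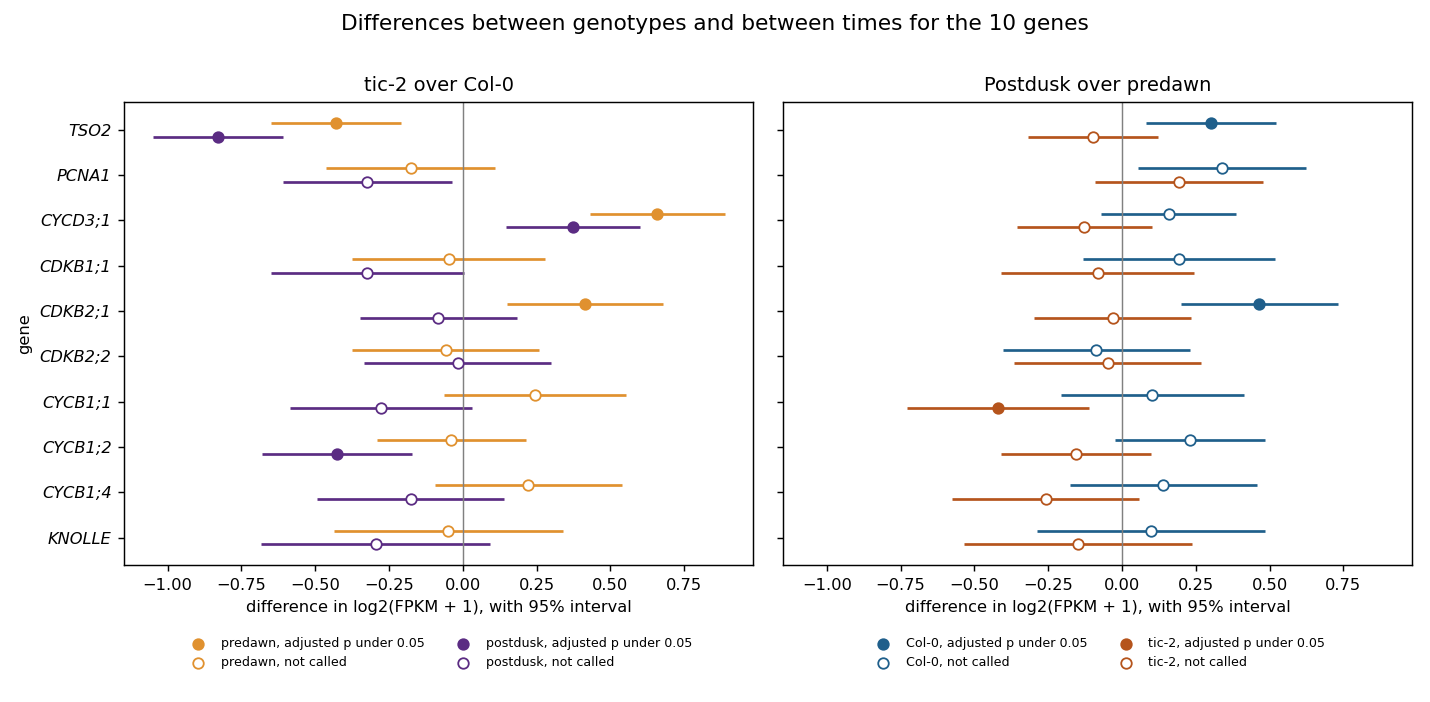
Difference in log2(FPKM + 1) with its 95% interval for the 10 genes, between genotypes at each time (left) and between times in each genotype (right). Filled points passed an adjusted p of 0.05. TSO2 lies below 0 at both times, at -0.43 and -0.83.

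At predawn, 2 of the 10 genes were higher in tic-2 (CYCD3;1 and CDKB2;1), 1 was lower (TSO2) and 7 were not called, where 27.7% of all genes tested were called, 13.1% higher and 14.6% lower. The groups did not overlap for these same 3 genes, against 44.7% of all genes. The median log2 difference of the 10 was -0.04, and that of all genes was -0.03. At postdusk, CYCD3;1 was higher, TSO2 and CYCB1;2 were lower and 7 were not called, where 29.5% of all genes were called, 9.71% higher and 19.8% lower. The groups did not overlap for 4 genes, these 3 and PCNA1, against 46.8% of all genes. The median of the 10 was -0.29 and 9 lay below 0, while the median of all genes was -0.12 with 64.4% below 0. Of all calls at postdusk 32.9% were higher in tic-2, and 57.1% were after rescaling by median of ratios, which brought the median of all genes to -0.01 and put CDKB2;1 and CDKB2;2 above 0. Under that rescaling the calls of TSO2 and the D-type cyclin held, and that of the B-type cyclin did not. The counts of called genes among the 10 are close to the shares of all genes.

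Between predawn and postdusk, CDKB2;1 and TSO2 rose in Col-0, 0 fell and 8 were not called, where 37.1% of all genes were called, 22.7% higher and 14.4% lower. The groups did not overlap for 5 genes, all higher at postdusk (CYCB1;2, CDKB1;1, CDKB2;1, TSO2 and PCNA1), against 57.6% of all genes, 34.9% in that direction. The median of the 10 was 0.18 and that of all genes 0.05. In tic-2, CYCB1;1 fell, 0 rose and 9 were not called, where 37.9% of all genes were called, 18.5% higher and 19.4% lower, and it was also the one gene without overlap, against 44.3% of all genes, 23.2% in that direction. The median of the 10 was -0.11 with 9 below 0, and that of all genes was -0.05 with 54.8% below 0. The time comparisons share their libraries with the genotype comparisons, so these counts are not independent.

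None of the 10 genes, a count of 0, was called for a genotype effect that differed between the times (limma, 15.9% of all genes called, 7.28% with a higher and 8.59% with a lower effect at postdusk), and 4 had an unadjusted p under 0.05 (CYCB1;1, CYCB1;2, CDKB2;1 and TSO2). limma-voom on recovered reads also called 0. With array weights limma called 8 of the 10. Of all 19274 genes, that setting called 2836 with a higher and 5118 with a lower effect at postdusk. The difference, postdusk effect minus predawn effect, was below 0 for 9 of the 10 with a median of -0.34 against -0.11 for all genes, of which 63.4% lay below 0.

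Among the other D-type cyclins, 8 of 9 were tested. CYCD3;2, a close relative of CYCD3;1, was at 47.01, 43.89 and 39.03 FPKM in Col-0 and at 91.95, 77.06 and 79.69 FPKM in tic-2 at predawn. At postdusk it was at 28.7, 25.21 and 29.42 FPKM in Col-0 and at 58.27, 58.33 and 37.37 FPKM in tic-2. No tic-2 library overlapped Col-0 of the same time, and tic-2 postdusk C was the lowest of its group. It was higher in tic-2 by 0.92 at predawn (SE 0.16, limma adjusted p = 0.000989) and by 0.84 at postdusk (SE 0.16, adjusted p = 0.00288), and it fell from predawn to postdusk in both genotypes (-0.62 in Col-0 and -0.71 in tic-2). CYCD3;3, the other relative, averaged 11.2 ± 0.436 FPKM in Col-0 against 15.1 ± 1.53 in tic-2 at predawn, and 16.4 ± 3.04 against 17.8 ± 5.71 FPKM at postdusk, and was not called. CYCD2;1 was lower in tic-2 at predawn, at 13.3 ± 1.004 against 19.5 ± 1.36 FPKM (-0.52, adjusted p = 0.000999), and at postdusk, at 10.6 ± 0.568 against 14.2 ± 0.876 FPKM (-0.38, adjusted p = 0.0084). CYCD1;1 was higher in tic-2 at predawn, at 17.7 ± 1.47 against 11.1 ± 0.674 FPKM (0.62, adjusted p = 0.00233).

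These calls of 3 genes between genotypes held under each of the 24 alternatives. CYCD6;1, at 2.24 against 1.38 FPKM, was also called higher at predawn (adjusted p = 0.0404), but not when any library other than B of tic-2 at predawn or B or C of tic-2 at postdusk was left out (0.0507 to 0.127). That call held under 12 of the 23 alternatives, and was also lost by quantiles (0.0642) and with the replicate letter as a block (0.0511). In all, 3 D-type cyclins were higher and 1 was lower at predawn, where 13.1% of all genes were higher and 14.6% lower. The list median was 0.33 against -0.03 for all genes. At postdusk 1 was higher and 1 lower, where 9.71% of all genes were higher and 19.8% lower. The list median there was -0.01 against -0.12. From predawn to postdusk, 22.7% of all genes rose and 14.4% fell in Col-0, and 18.5% rose and 19.4% fell in tic-2. In Col-0, CYCD1;1 rose (0.74, limma adjusted p = 0.000494) and CYCD2;1 and CYCD3;2 fell. The same 3 genes moved in the same directions in tic-2, where the call of CYCD1;1 (0.39, adjusted p = 0.0229) was lost without tic-2 predawn B (0.0687), predawn C (0.0606) or postdusk B (0.0761), and that of CYCD2;1 (-0.29, adjusted p = 0.0207) without tic-2 predawn A (0.0735) or postdusk A (0.0634). None of the 8 was called for a difference between the genotype effects, where 15.9% of all genes were. Of the 8, 0 had an unadjusted p under 0.05 and 0 were called by limma-voom.

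**Figure D3:**
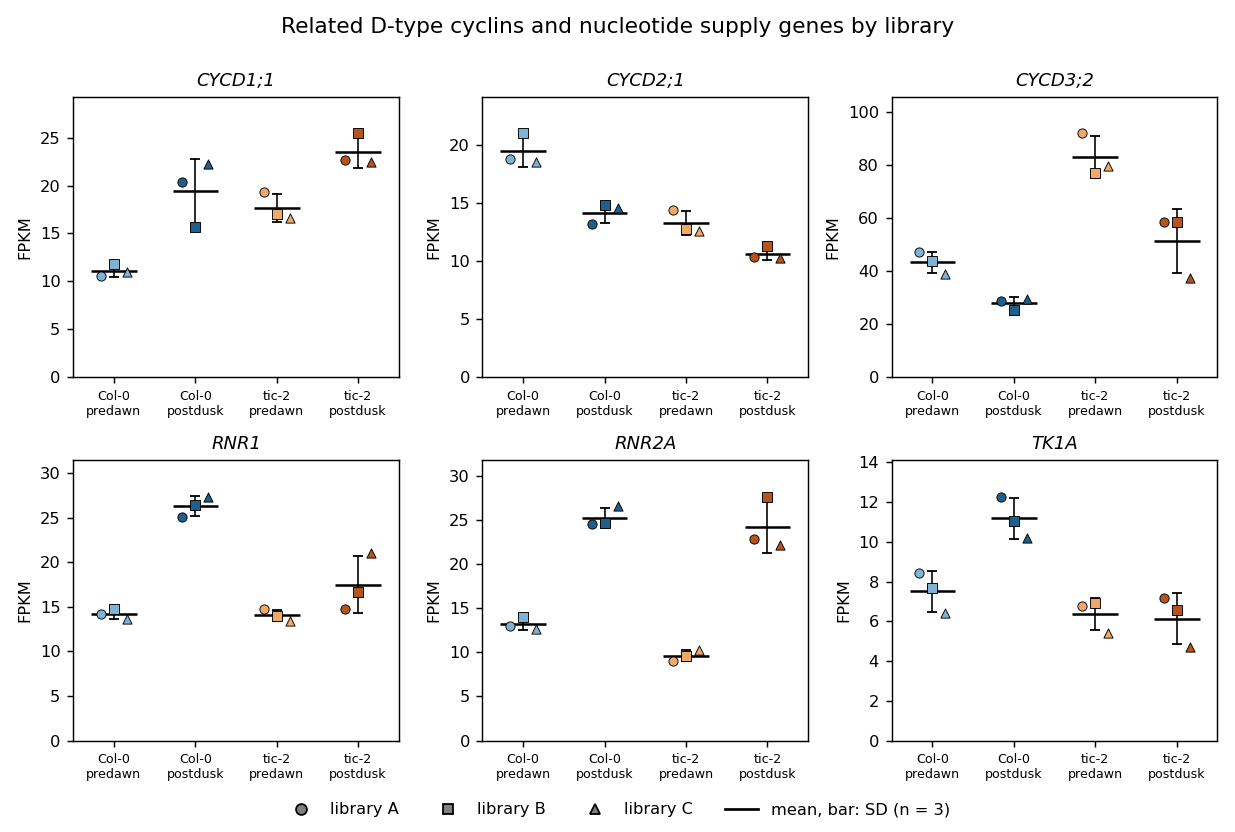
Level in FPKM (vertical axes, each from 0) of 3 D-type cyclins and 3 nucleotide supply genes in the 12 libraries. Symbols are libraries A, B and C, and lines and bars are the mean and SD of 3 libraries. CYCD3;2 is higher in tic-2 at both times, and RNR1 and TK1A are highest in Col-0 at postdusk while RNR2A reaches about the same level in both genotypes at postdusk.

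The other DNA replication genes, 22 tested of 23, cover nucleotide supply (RNR1, RNR2A, TK1A), the second clamp gene PCNA2, the MCM helicase, origin recognition and licensing proteins, polymerases and chromatin assembly. In Col-0, 12 of the 22 rose from predawn to postdusk and 0 fell, where 22.7% of all genes rose and 14.4% fell. The list median was 0.39 against 0.05 for all genes. RNR2A, a small subunit of ribonucleotide reductase like TSO2, rose from 13.2 ± 0.709 to 25.2 ± 1.13 FPKM (0.88, SE 0.10, limma adjusted p = 2.27e-05). RNR1, the large subunit, rose from 14.2 ± 0.564 to 26.3 ± 1.16 FPKM (0.84, SE 0.11, adjusted p = 9.82e-05), and MCM4, a subunit of the replicative helicase, from 4.58 to 6.97 FPKM (0.51, adjusted p = 0.00228). These 3 calls held under each of the 24 alternatives. The count was between 8 and 15 over the alternatives, with the lowest count, 8, without Col-0 predawn C. Of all genes, 4366 rose in the fit reported here, 3600 without Col-0 predawn C and 5727 with array weights.

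In tic-2, 4 of the 22 rose from predawn to postdusk and 1 fell, where 18.5% of all genes rose and 19.4% fell. The list median was 0.14 against -0.05 for all genes. RNR2A rose more than any other gene of the list, from 9.59 ± 0.632 to 24.2 ± 2.99 FPKM (1.25, SE 0.10, limma adjusted p = 1.725e-06). AT5G63960 rose from 5.65 to 8.26 FPKM (0.50, adjusted p = 0.00676). MCM6 rose from 2.49 to 3.42 FPKM (0.34, adjusted p = 0.0154), a call lost without tic-2 predawn A (0.055), and MCM2 rose by 0.42 (adjusted p = 0.0199), lost without tic-2 postdusk C (0.0511). FAS1, a subunit of the chromatin assembly factor, fell by 0.39 (log2 fold change -0.39, adjusted p = 0.0478), a call lost when any library other than B of tic-2 at predawn or C of tic-2 at postdusk was left out (0.0557 to 0.18). The FAS1 call held under 9 of the 23 alternatives. RNR1, at 14.1 ± 0.648 and 17.5 ± 3.22 FPKM, was not called in tic-2. The count of those that rose was 2 in a fit of the tic-2 libraries alone and 2 without both C libraries of tic-2, and 6 after rescaling by median of ratios. Of all genes, 3574 rose in the fit reported here. That number was 2604 with the tic-2 libraries alone, 3699 without both C libraries and 3852 by median of ratios.

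Between genotypes at predawn, 0 replication genes were higher and 2 were lower in tic-2, where 13.1% of all genes were higher and 14.6% lower. The list median was -0.11 against -0.03 for all genes. RNR2A was at 9.59 against 13.2 FPKM (-0.43, SE 0.10, limma adjusted p = 0.00578), under each alternative, and MCM6 was at 2.49 against 3.25 FPKM (adjusted p = 0.0449), a call lost when any library other than tic-2 postdusk C was left out (0.0509 to 0.129). The MCM6 call held under 6 of the 23 alternatives, and was also lost by median of ratios (0.0684) and by quantiles (0.0828). At postdusk 8 were lower and 0 higher, where 19.8% of all genes were lower and 9.71% higher. The list median was -0.30 against -0.12 for all genes. TK1A, a thymidine kinase, was at 6.14 ± 1.29 against 11.2 ± 1.04 FPKM (-0.78, SE 0.15, adjusted p = 0.00303). RNR1 was at 17.5 ± 3.22 against 26.3 ± 1.16 FPKM (-0.58, SE 0.11, adjusted p = 0.00334), and PCNA2 at 8.22 ± 0.726 against 12.7 ± 0.299 FPKM (-0.58, SE 0.11, adjusted p = 0.00342). These 3 calls held under each of the 24 alternatives. MCM3, MCM4, MCM6, MCM7 and ORC3 completed the 8. The count was 3 after rescaling by median of ratios, 4 after quantile normalization, 18 with array weights, 11 without both C libraries of tic-2, 3 without tic-2 postdusk A and 5 without tic-2 postdusk B. Of all genes, 3814 were lower in the fit reported here, 1870 by median of ratios, 2275 by quantiles and 7138 with array weights. The number was 4401 without both C libraries of tic-2, 2611 without tic-2 postdusk A and 3566 without tic-2 postdusk B.

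RNR2A at postdusk, at 24.2 ± 2.99 FPKM in tic-2 and 25.2 ± 1.13 in Col-0, was not called, while TSO2, which also encodes a small subunit, was. The genotype effect differed between the times for RNR1 alone among the replication genes (-0.56, SE 0.16, limma adjusted p = 0.0304), a call lost when any library other than Col-0 postdusk A, tic-2 predawn C or tic-2 postdusk C was left out (0.0526 to 0.0776), and after rescaling by median of ratios (0.0861) or by quantiles (0.0637). In that comparison 15.9% of all genes were called.

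**Figure D4:**
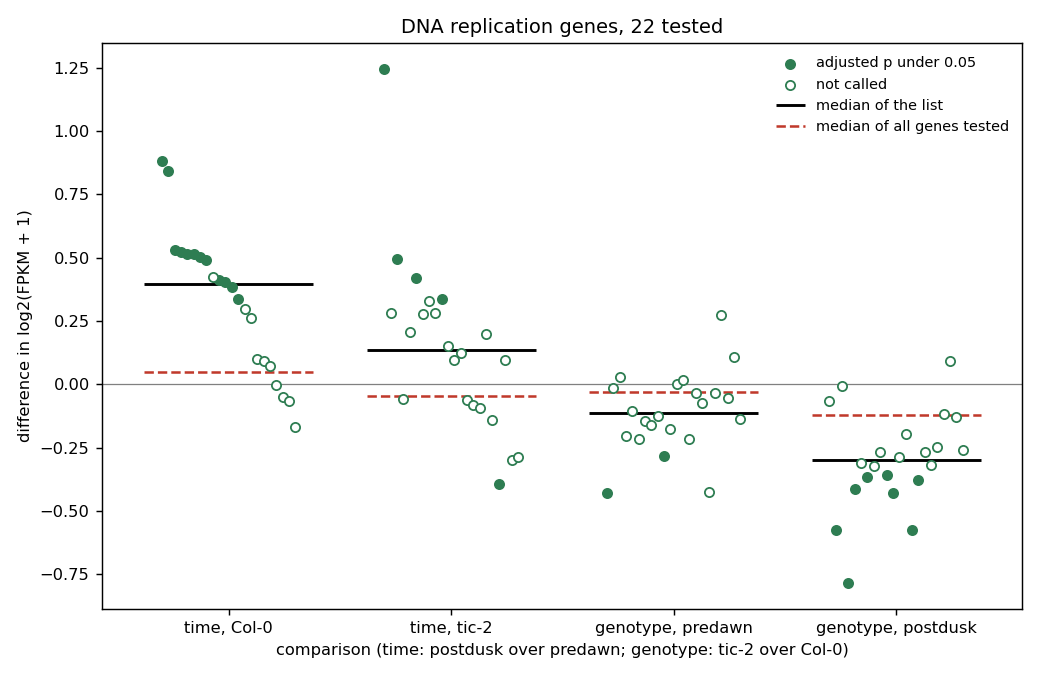
Difference in log2(FPKM + 1) of the 22 DNA replication genes tested, for the time comparison in each genotype and the genotype comparison at each time. Points are genes in 1 order throughout, filled where the adjusted p was under 0.05, solid lines are list medians and dashed lines medians of all genes tested. The list median is 0.39 for time in Col-0, 0.14 for time in tic-2 and -0.30 for genotype at postdusk.

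Of the mitosis and cytokinesis genes 20 were tested. At predawn 4 were higher in tic-2 and 0 lower, where 13.1% of all genes were higher and 14.6% lower. The list median was 0.19 against -0.03 for all genes. TES, a kinesin of the cytokinetic apparatus, was at 4.33 against 2.66 FPKM (0.54, limma adjusted p = 0.0108) under each alternative. MAD2, a spindle checkpoint protein, was at 8.55 against 6.10 FPKM (0.43, adjusted p = 0.0154), a call lost without Col-0 predawn B (0.0611) or C (0.056). KEULE, the partner of KNOLLE in cell plate fusion, was at 34.5 against 27.5 FPKM (0.32, adjusted p = 0.0432), a call lost when any library other than tic-2 predawn C, tic-2 postdusk B or tic-2 postdusk C was left out (0.0551 to 0.125). The KEULE call held under 12 of the 24 alternatives. It was also lost by quantiles (0.0639), with the replicate letter as a block (0.0641) and without the mean-variance trend (0.0512). AUR3, an Aurora kinase, was at 3.41 against 2.38 FPKM (adjusted p = 0.044), a call lost when any library other than Col-0 postdusk B, tic-2 predawn C, tic-2 postdusk A or tic-2 postdusk C was left out (0.0554 to 0.146). The AUR3 call held under 10 of the 23 alternatives, and limma-voom on recovered reads also lost it (0.0687).

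At postdusk 1 mitosis gene was higher in tic-2 and 0 lower, where 9.71% of all genes were higher and 19.8% lower. The list median was -0.12, against -0.12 for all genes. The gene was TES again, at 5.48 against 3.87 FPKM (0.42, limma adjusted p = 0.0375), a call lost without Col-0 predawn C (0.0503), Col-0 postdusk A (0.123) or B (0.108), or tic-2 postdusk A (0.0734) or C (0.11). This TES call held under 16 of the 24 alternatives. With array weights 9 were lower, where 7138 of all 19274 genes were. Over time in Col-0, 4 rose and 1, KEULE, fell from 27.5 to 20.4 FPKM (-0.41, adjusted p = 0.00916), where 22.7% of all genes rose and 14.4% fell. The count of 4 that rose was 1 after rescaling by median of ratios, 0 after quantile normalization, 1 with no filter on low values, 2 with a minimum of 5 FPKM and 7 with array weights. Of all 19274 genes, 4366 rose in the fit reported here and 5727 with array weights. Of all genes tested, 3667 rose by median of ratios, 3591 by quantiles, 4370 with no filter and 3665 with a minimum of 5 FPKM. The count of 4 was 2 without Col-0 predawn A, 1 without Col-0 predawn B, 0 without Col-0 predawn C, 1 without Col-0 postdusk B, 0 without Col-0 postdusk C and 6 without both C libraries of tic-2. Of all genes, 3537, 3598 and 3600 rose without Col-0 predawn A, B or C. The number was 3707 without Col-0 postdusk B, 3491 without Col-0 postdusk C and 5390 without both C libraries of tic-2. In tic-2, 0 rose and 3 fell, where 18.5% of all genes rose and 19.4% fell. KEULE fell from 34.5 to 20.6 FPKM (-0.73, adjusted p = 0.000224), AUR3 from 3.41 to 2.05 FPKM (-0.53, adjusted p = 0.00614) and MAD2 from 8.55 to 6.61 FPKM (-0.33, adjusted p = 0.0384). The KEULE call held under each of the 24 alternatives and that of AUR3 under each of the 23 that gave it a value. The call of MAD2 was lost when any library other than Col-0 predawn A, Col-0 postdusk A or B, or tic-2 postdusk B was left out (0.0512 to 0.119), and held under 12 of the 24 alternatives. The genotype effect differed between the times for MAD2 alone in this list (-0.66, SE 0.16, adjusted p = 0.0167), under each of the 23 alternatives run. In that comparison 15.9% of all genes were called.

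Markers of meristems, differentiated root and leaf were read beside these values. The summed level of 5 shoot meristem markers at predawn was 27.2 to 29.3 FPKM in the wild type and 33.0 to 41.2 FPKM in the mutant, and at postdusk 28.8 to 35.9 and 39.3 to 41.1 FPKM. The sums did not overlap between genotypes at either time. For single genes, 44.7% of all genes tested did not overlap between genotypes at predawn and 46.8% at postdusk. Called between genotypes were 27.7% of all genes at predawn and 29.5% at postdusk. Of the 5 genes, ANT, which promotes organ growth, was called higher in tic-2 at predawn (18.3 against 14.01 FPKM, limma adjusted p = 0.0112), lost without Col-0 predawn B (0.0552), and at postdusk (24.1 against 18.9 FPKM, adjusted p = 0.0174), lost without Col-0 postdusk A (0.0704) or B (0.0643) or tic-2 postdusk B (0.0508). STM and KNAT1 were not called, and the defining stem cell markers WUS and CLV3 were at 0 or near it, with no library above 0.1753 FPKM. The summed level of 4 root meristem markers at predawn was 30.7 to 32.1 FPKM in the wild type and 31.1 to 33.2 FPKM in the mutant, and at postdusk 21.9 to 25.5 and 28.3 to 33.1 FPKM, without overlap at postdusk. Of these, SHR was called higher in tic-2 at predawn (15.1 against 11.1 FPKM, adjusted p = 0.00847) and at postdusk (11.9 against 7.18 FPKM, adjusted p = 0.000857), and PLT1 and PLT2 were near 1 FPKM throughout. SCR, PLT1 and PLT2 were not called between genotypes at either time. The log2 difference was below 0 for 2 of the 4 root markers at predawn, with a list median of 0.02. At postdusk it was below 0 for 1 of the 4, with a median of 0.12. The summed level of 3 markers of differentiated root at predawn was 978 to 1331 FPKM in the wild type and 955 to 1428 FPKM in the mutant, and at postdusk 736 to 1226 and 901 to 964 FPKM. The summed level of 2 leaf markers at predawn was 21250 to 23490 FPKM in the wild type and 22020 to 28540 FPKM in the mutant, and at postdusk 10490 to 11990 and 12480 to 14530 FPKM, without overlap at postdusk. LHCB1.3, a light-harvesting protein, was called higher in tic-2 at postdusk (5317 against 2687 FPKM, adjusted p = 0.00284), lost with no filter on low values (0.112). At predawn it was called higher (adjusted p = 0.046) and RBCS1A, a small subunit of Rubisco, lower (6506 against 9398 FPKM, adjusted p = 0.0253). Both predawn calls were lost without any 1 of the 3 Col-0 predawn libraries (0.0816 to 0.125 for LHCB1.3 and 0.0537 to 0.0884 for RBCS1A). That of LHCB1.3 was also lost without tic-2 predawn A (0.0767), tic-2 predawn C (0.139) or tic-2 postdusk A (0.0634), and that of RBCS1A without tic-2 predawn B (0.0838). The LHCB1.3 predawn call held under 12 of the 24 alternatives and that of RBCS1A under 18. Both were lost by quantiles and with no filter on low values (0.414 for LHCB1.3 and 0.431 for RBCS1A). Some of these markers also changed over time. By limma, ANT (adjusted p = 0.00389 in Col-0 and 0.00572 in tic-2) rose from predawn to postdusk. SHR (0.000839 and 0.0247) and LHCB1.3 (2.37e-06 and 1.55e-05) fell. Of all genes, 37.1% were called over time in Col-0 and 37.9% in tic-2. The SHR call in tic-2 held under 19 of the 24 alternatives. The part of tissue composition in the levels of the 10 genes was not tested.

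Single libraries were high or low for many of the 10 genes together. Col-0 predawn A held the highest value of its group for 9 of the 10, Col-0 postdusk C for 7, and Col-0 postdusk A the lowest for 8. Within tic-2 the genes split. Library A at predawn was highest for 6, the 3 B1-type cyclins, CDKB1;1, CDKB2;1 and KNOLLE, and lowest for the other 4. Library C at postdusk was highest for CYCB1;2, CYCB1;4, CDKB2;1 and KNOLLE and lowest for 5 others, among them TSO2 and PCNA1.

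Over the 12 libraries, which share 4 groups, Pearson's r of log2 levels was 0.812 between CYCB1;2 and KNOLLE, 0.763 between CYCB1;4 and KNOLLE, 0.747 between TSO2 and PCNA1, and -0.712 between TSO2 and CYCD3;1. With the group means taken off, it was 0.852, 0.87 and 0.768 for the first 3 pairs and 0.31 for the last. CYCB1;1 and CDKB1;1 stood at 0.638 and, with the group means taken off, at 0.843, while CDKB2;1 and CDKB2;2 stood at -0.201 and -0.036. These are descriptions of 12 libraries, and any difference in depth or tissue between libraries is shared by all genes in them.

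Exons of 6 of the 10 genes share bases with a neighbouring gene, and the sources used here do not say whether reads were counted by strand, although the library kit was directional. KNOLLE shares most, 464 bases with AT1G08550, which stood at 20.18 and 47.6 FPKM in Col-0 and at 23.4 and 43.2 FPKM in tic-2 at predawn and postdusk. CDKB2;1 shares 44 bases with AT1G76530, which stood at 0.857 and 5.11 FPKM in Col-0 and at 1.45 and 20.3 FPKM in tic-2. CYCD3;1 shares 40 bases with AT4G34150, at 45.5 and 145.0 FPKM in Col-0 and 24.3 and 76.0 FPKM in tic-2, where the order between genotypes is the reverse. TSO2 shares 3 bases with AT3G27050 and CDKB1;1 shares 71 with AT3G54190. AT4G34150 lies on the strand of CYCD3;1 and AT3G27050 on that of TSO2, so counting by strand would not separate reads of these shared bases. CDKB2;2 shares 192 with AT1G20925, which was not used here.

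The genes most like each profile were named by Pearson's r over the same 12 libraries. The mean profile of the 3 B1-type cyclins, the 3 CDKBs and KNOLLE was closest to AT4G02800 (r = 0.945), annotated as a GRIP/coiled-coil protein, which at predawn and postdusk stood at 5.17 and 6.45 FPKM in the wild type and 5.58 and 4.56 FPKM in the mutant. XCP2, a xylem cysteine peptidase (0.889), UBQ4 (0.847), AT4G26580 (0.841) and AT2G36570 (0.832) followed. The mean profile of TSO2 and PCNA1 was closest to AT1G54770 (0.948), annotated as an Fcf2 pre-rRNA processing protein, at 10.7 and 14.6 FPKM in Col-0 and 8.51 and 9.58 FPKM in tic-2. AT5G08565 (0.947), LpxA (0.943), AT5G39800 (0.942) and AT5G01940 (0.941) followed. CYCD3;1 was closest to AT5G39520 (0.969), at 1.39 and 2.97 FPKM in Col-0 and 15.8 and 11.9 FPKM in tic-2, then to AT5G02580 (0.964), AT2G06995 (0.963), AT2G46780 (0.96) and RAP2.12 (0.952).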

How the data were processed

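Reads were processed by the authors. The deposited table holds FPKM per gene and library, and TopHat, TopHat2, edgeR and the build TAIR10 are named, with no roles given, per the submitters' processing notes. How reads were counted, and whether by strand, is not given in the sources used here. From the deposited FPKM, limma 3.58.1 (R 4.3.3) was fitted to log2(FPKM + 1), with 4 group means over 12 libraries (8 residual degrees of freedom) and a mean-variance trend. A gene was tested where 3 or more libraries reached 1 FPKM, which kept 19274 and removed 6455. A fold change on this scale understates the change of low genes. Whole reads were recovered from the FPKM steps with RefSeq exon lengths, which gave the depths, and limma-voom was run on them. Counting error covers read sampling only. Promoter windows and gene positions are from RefSeq TAIR10.1. The fit was tested on simulated data with the same spread setting for all genes and groups. That test does not cover groups of unequal spread.

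The 10 genes and the 10 lists of other cell cycle genes (113 genes, 111 in the table) were chosen with earlier results of these data known. Named list genes are up to 3 per list and comparison, those with the smallest adjusted p at FPKM of at least 2 in the higher group. CYCD3;3, CYCD6;1, MCM2, MCM3, MCM4, MCM6, MCM7, ORC3, FAS1, AUR3 and the marker genes were named after their values were seen where that rule did not reach them, as were list genes under 2 FPKM. Alternatives changed the pseudocount, filter, scaling, fit, weights, replicate block, unit, and the libraries left out. Losses named for list genes are mainly those on leaving out 1 library, and other settings lost some of these calls too.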

Additional observations from a re-analysis of the deposited data

How the results depend on the processing

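Of 1180 values of single genes of the 10 under alternative settings, 1081 kept direction and side of the threshold, 25 lost their call, 35 gained one and 39 changed sign. None of the 39 had a call, a count of 0, and among those that changed sign the largest size of the value as reported, before the change of setting, was 0.148 on the log2 scale.

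Array weights gave 8 calls among the 10 genes at postdusk, 8 for the difference between the genotype effects, 4 over time in Col-0 and 7 over time in tic-2, against 3, 0, 2 and 1. Calls rose among all genes too. Of 19274 genes, array weights called 3305 higher and 7138 lower at postdusk, and 2836 higher and 5118 lower for the difference. Over time they called 5727 higher and 3984 lower in Col-0, and 5420 higher and 6744 lower in tic-2. Without both C libraries of tic-2 the counts among the 10 genes were 1 for the difference between effects, 4 in Col-0 and 2 in tic-2. Among all genes that setting called 1781 higher and 2638 lower for the difference. Over time it called 5390 higher and 3499 lower in Col-0, and 3699 higher and 3775 lower in tic-2. Rescaling by median of ratios or by quantiles left 1 call over time in Col-0. Of all genes, 3667 were higher and 3348 lower by median of ratios, and 3591 higher and 3576 lower by quantiles. The count over time in tic-2 was 0 with no filter, 0 with a minimum of 5 FPKM and 0 in a fit of the tic-2 libraries alone. In that order, these settings called 3548, 3058 and 2604 of all genes higher and 3657, 3421 and 2439 lower. Leaving out 1 library in turn gave 2 to 3 calls at predawn, 1 to 4 at postdusk, 0 to 2 for the difference, 1 to 3 over time in Col-0 and 0 to 1 in tic-2. The causes were not tested.

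The replicate letters did not pair the libraries: deviations of same-lettered libraries correlated between -0.327 and 0.206. With the letter as a block, 3, 3, 0, 2 and 1 of the 10 genes were called in the 5 comparisons, as without it. Replicates did not agree equally well in the 4 groups. Across genes, Pearson's r between replicates was 0.9915 to 0.992 in Col-0 predawn and 0.9821 to 0.9876 in Col-0 postdusk. It was 0.9662 to 0.9828 in tic-2 predawn and 0.9711 to 0.9897 in tic-2 postdusk. The lowest value in each tic-2 group was for a pair with library C.

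Signs changed as follows (log2). At predawn, array weights gave 0.00209 for CDKB1;1 and 0.0207 for CDKB2;2, and leaving out the C pair gave 0.0616 for CDKB1;1, 0.0208 for CYCB1;2 and 0.0539 for KNOLLE. At postdusk, CDKB2;1 was 0.0338 by median of ratios and 0.024 by quantiles, and CDKB2;2 was 0.097, 0.0989, 0.00348 with array weights and 0.0955 without the C pair. For the difference CDKB2;2 was -0.0173 with array weights. Over time in tic-2 without the C pair, CDKB2;2 was 0.149 and TSO2 0.00172.

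Leaving out 1 library changed signs within these ranges. At predawn they were -0.0908 to 0.0208 for CYCB1;2, -0.137 to 0.0616 for CDKB1;1, -0.142 to 0.0854 for CDKB2;2 and -0.183 to 0.0539 for KNOLLE. At postdusk they were -0.181 to 0.00643 for CDKB2;1 and -0.123 to 0.0955 for CDKB2;2, and for the difference -0.103 to 0.153 for CDKB2;2. Over time in Col-0 they were -0.0139 to 0.182 for CYCB1;1 and -0.163 to 0.00623 for CDKB2;2. Over time in tic-2 they were -0.25 to 0.0182 for CDKB1;1, -0.103 to 0.0344 for CDKB2;1, -0.191 to 0.0654 for CDKB2;2, -0.164 to 0.000924 for TSO2 and -0.346 to 0.0264 for KNOLLE. Depth limits the genes with fewest reads most, down to 69 in 1 library.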

Other observations

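CDK inhibitors restrain the cell cycle. Of 13 tested, KRP genes and SIM among them, 4 were called over time in Col-0, all of them KRP genes. In that comparison 37.1% of all genes tested were called. KRP2 fell from 13.03 ± 0.884 to 7.67 ± 0.511 FPKM (SD, n = 3, log2 fold change -0.69, limma adjusted p = 5.239e-05) and KRP4 from 16 ± 0.966 to 8.75 ± 1.07 FPKM (-0.81, adjusted p = 0.000138). KRP6 rose from 6.39 to 12.5 FPKM (0.86, adjusted p = 0.00416) and KRP7 from 3.12 to 5.39 FPKM (0.63, adjusted p = 0.00411). In tic-2, where 37.9% of all genes were called, KRP2 (-0.45, adjusted p = 0.00134) and KRP4 (-0.76, adjusted p = 0.000224) fell, and KRP6 rose (0.58, adjusted p = 0.0342), a call lost without tic-2 predawn A (0.124) or B (0.0898) or tic-2 postdusk B (0.0771) or C (0.0855). The other 6 calls held under each of the 24 alternatives. Between genotypes at predawn limma called 0 of the 13, where 27.7% of all genes were called. Of the 13, 5 had an unadjusted p under 0.05 and limma-voom called 0. Over the 24 alternatives, 0 to 5 were called higher and 0 to 2 lower. Calls among all genes moved with the setting too, with 4529 higher and 5003 lower under array weights. In the postdusk comparison 29.5% of all genes were called. At postdusk 1 was called, SIM, at 1.94 against 0.78 FPKM (adjusted p = 0.0264), lost without Col-0 postdusk A (0.0502) or C (0.0937) or tic-2 postdusk A (0.0856) or B (0.0815).

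DEL2, an atypical E2F factor, stood in Col-0 at 0.664 ± 0.366 FPKM at predawn and 4.18 ± 0.0790 at postdusk. The mutant means were 1.83 ± 0.0954 and 2.99 ± 0.422 FPKM. It was higher in tic-2 at predawn (0.79, limma adjusted p = 0.00207), and its genotype effect differed between the times (-1.17, adjusted p = 0.00264), under each alternative run. MYB3R1, one of the factors that bind AACGG, rose over time in Col-0 from 8.10 to 11.1 FPKM (0.41, adjusted p = 0.00413) and in tic-2 from 7.30 to 10.95 FPKM (0.52, adjusted p = 0.000823). Between genotypes limma called 0 of 5 MYB3R and related factors at either time, with 0 at an unadjusted p under 0.05 and 0 called by limma-voom. Of all genes, 27.7% were called at predawn and 29.5% at postdusk.

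Between genotypes 27.7% of all genes tested were called at predawn and 29.5% at postdusk, against which the counts of the remaining lists are set. Of 8 A-type cyclins tested 2 were higher at predawn and 2 lower at postdusk. Of 6 other B-type cyclins limma called 0 at either time, with 1 at an unadjusted p under 0.05 at predawn, 0 at postdusk and 0 called by limma-voom. Of 8 other kinases and activators 0 were called at predawn, with 1 at an unadjusted p under 0.05 and 0 by limma-voom, and 2 were lower at postdusk. Of 9 RBR and E2F factors 2 were higher at predawn and 1 each way at postdusk, and of 6 regulators of the anaphase-promoting complex 1 was higher at predawn and 2 lower at postdusk. Each of these 13 calls except that of DEL2 was lost under at least 1 setting. The call of CDKD;2 at postdusk held under 10 of 24 alternatives, that of CYCA1;2 at predawn under 13 of 23, that of CCS52A1 at postdusk under 13 of 24 and those of CYCA1;1 and DEL1 at postdusk under 15 of 23. The other 7 held under 17 or more of the 23 or 24 run.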
